A study of Rattus norvegicus with 35 samples.

Results

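The comparison was between left abdominal mammary glands from daughters of Sprague-Dawley dams that had received bisphenol A (BPA) at 25 µg/kg/day (BPA25), and those from daughters of negative control dams. The 10 arrays were the 5 BPA25 and the 5 control arrays of a series of 35, chosen by the treatment named in their titles. BPA25 dams were dosed by gavage from gestational day 10 to 21, and control dams are labelled only as negative control. Glands were taken on postnatal day 21, with 150 ng of RNA for each array. The remaining 25 arrays were 5 groups of 5, namely BPA at 250 µg/kg/day (BPA250) and each BPA dose with dietary genistein (250 mg/kg chow, about 5.5 mg/kg/day) or indole-3-carbinol (2000 mg/kg chow, about 45.0 mg/kg/day). Offspring came from different litters, but the labels do not tie arrays to litters or say what the control dams were given. P-values therefore measure only the spread between these arrays.

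BPA is a monomer of polycarbonate plastics that binds oestrogen receptors weakly. In the weanling rat the gland is a small tree of epithelial ducts inside a large pad of fat, so RNA of the whole organ comes mostly from adipocytes, stroma and vessels, with epithelium as a minor part. White adipocytes can make fatty acids from acetyl-CoA and cholesterol from the same precursor, under the control of sterol response element binding proteins and insulin. Glucocorticoids act in the same cells and in epithelium through a nuclear receptor whose direct targets include Per1, Fkbp5, Tsc22d3 and Zbtb16.

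Defining markers of white adipocytes were well above background on all 10 arrays. Adipoq (adiponectin) averaged 7.94 in BPA25 glands and 7.99 in control glands on the log2 scale used throughout, on which 0 is the 75th percentile signal of an array. The luminal keratin Krt18 was also above background on all 10 arrays. Array signal was not even. On slide 3, which held replicate 2 of both groups, 93.8% (BPA25) and 92.5% (control) of probes were well above background, while the other 4 arrays of each group had 39.0% to 49.8% (BPA25) and 41.1% to 47.9% (control). The share of bright probes did not differ between the groups beyond the spread of arrays (exact two-sided permutation test, 5 against 5, p = 0.865), nor did the 75th percentile signal (exact permutation p = 0.595). These tests did not pair arrays by slide. In all, 4 slides held an array of each group, and on these a difference within the slide is free of the slide's own level. Such a difference is not free of array position, which cannot be told apart from treatment here. On slides 1, 3, 7 and 9 the BPA25 array was at position 3, 2, 2 and 4, and the control array at 2, 1, 1 and 3. The 75th percentile signal there was 247.1, 508, 110.3 and 164 for BPA25, against 92.5, 374.8, 73.33 and 114.9 for control. The part of position and brightness in the within-slide differences was not tested.

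Of 16139 genes, limma called 0 between BPA25 and control at an adjusted p under 0.05 (0.0%), and the median difference of all genes was 0.01. At an unadjusted p under 0.05 there were 323 genes (2.0%), of which 83 (0.514%) had higher and 240 (1.49%) had lower values in BPA25 glands. The 2.0% is below the share of 0.05 that this threshold admits on average when no gene differs. Shares of all genes at this threshold set beside list counts below are these low observed shares. The split moved with the processing: quantile normalisation gave 101 higher and 118 lower, and the authors' deposited values, whose normalization is not given, 106 higher and 99 lower. With the replicate number as a block the counts were 243 higher and 388 lower, and with slide as a block 451 (2.79%) higher and 353 (2.19%) lower. Without BPA25 replicate 2 they were 303 and 336, and without control replicate 2 they were 182 and 503. A fit that weights each array by its own noise gave the slide 3 arrays weights of 0.154 (BPA25) and 0.105 (control) and called 143 genes (0.886%), 17 higher and 126 lower in BPA25 glands. No other alternative called a gene. Every difference named below therefore missed the adjusted threshold in the 35-array fit, and is given as a value with its standard error and limma's unadjusted p.

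Set against all genes, of which 52.0% had a difference above 0, fatty acid and triglyceride synthesis (median 0.81) and cholesterol synthesis (median 0.47) stood highest, and glucocorticoid-induced genes lowest, among the 41 lists examined. Schwann cell markers (0.36), endothelial markers (0.31) and phospholipid synthesis (0.27) came next. Glucocorticoid-induced genes had a median of -0.46. The medians of the 3 synthesis lists and of the glucocorticoid list kept their sign under each of 28 alternatives. Lists and members were chosen with earlier results of these data known. They hold genes with the smallest p on these arrays, such as Acss2, Pisd, Zbtb16 and Per1. Neither the ranking nor the kept signs are therefore independent support for a list. In bulk tissue, fewer cells of a type and less RNA per cell cannot be told apart.

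**Figure D1:**
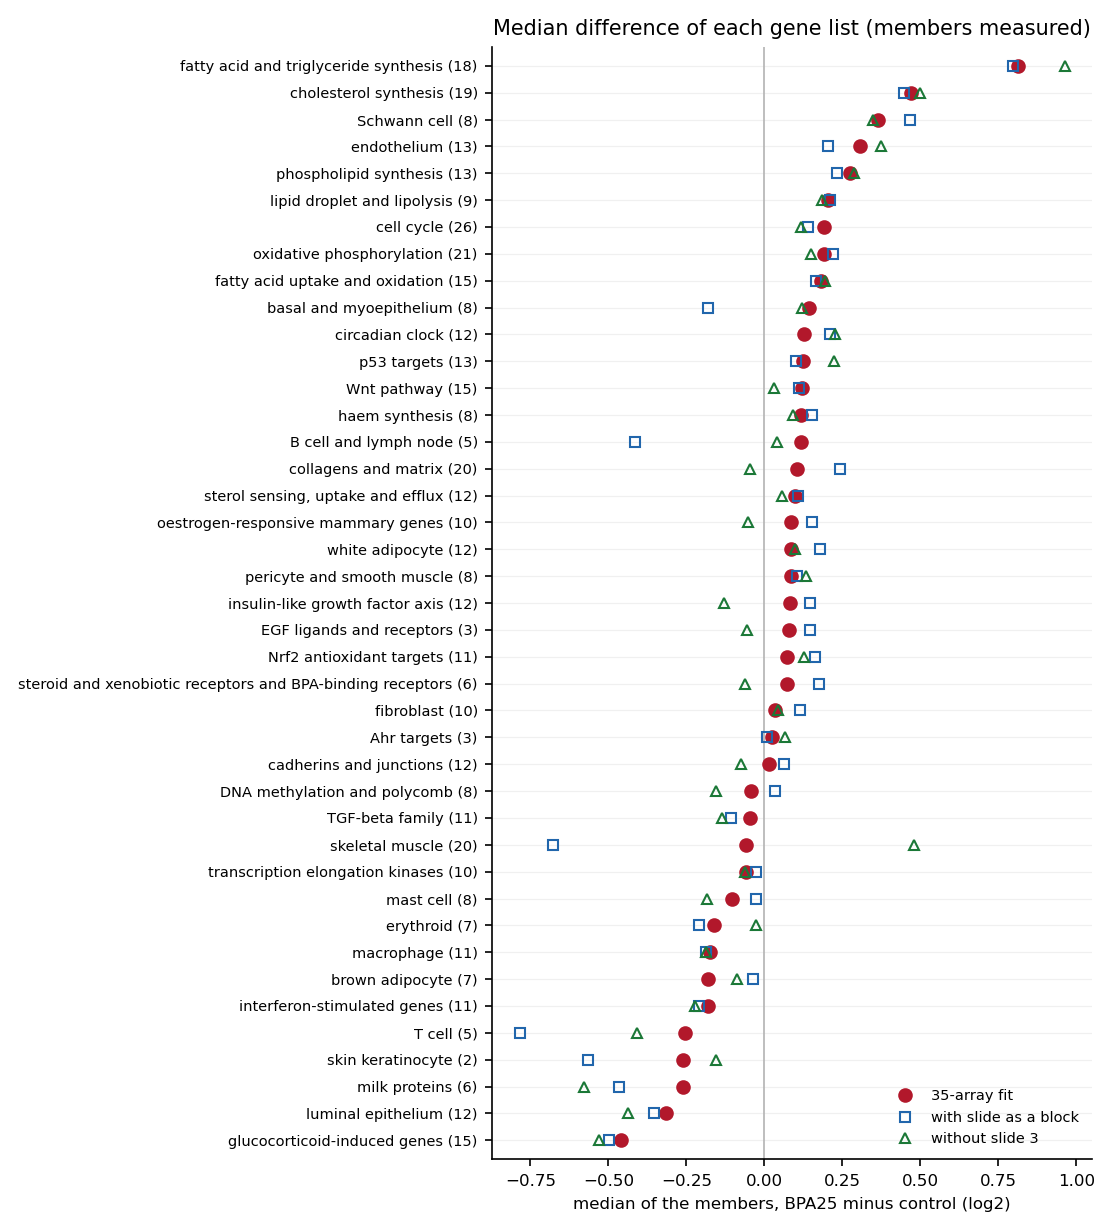
Median BPA25 minus control difference (log2, x axis) of the measured members of each of 41 gene lists (number of members in parentheses), in the 35-array fit (red circles), with slide as a block (blue squares) and without slide 3 (green triangles). The lipid synthesis lists lie at 0.27 to 0.81 and the glucocorticoid list at -0.46 in the 35-array fit, and the 3 fits lie far apart for skeletal muscle, T cell and B cell markers.

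Promoters of 3 genes from the lipid lists with the smaller p-values are shown because their lists had the highest medians and because a CCAAT box, the letters CCAAT bound by the factor NF-Y, lay in most promoters of both lists. Me1 and Cyp51, which also had an unadjusted p under 0.05 in limma, held 0 CCAAT boxes, and their promoters are not shown. Each promoter shown is the RefSeq sequence of the GRCr8 build from 250 bases before to 50 after the annotated start, 5′ to 3′ on the gene's strand, with CCAAT or its reverse complement in capitals. Acss2 is at chr3:164464453-164464752 (+), Pnpla3 at chr7:117173278-117173577 (+) and Fdps at chr2:176804767-176805066 (-).
Acss2: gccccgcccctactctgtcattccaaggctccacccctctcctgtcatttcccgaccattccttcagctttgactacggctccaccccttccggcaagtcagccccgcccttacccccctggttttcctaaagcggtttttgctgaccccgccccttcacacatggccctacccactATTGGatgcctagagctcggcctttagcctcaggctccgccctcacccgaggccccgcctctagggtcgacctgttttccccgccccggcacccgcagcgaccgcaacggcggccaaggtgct
Pnpla3: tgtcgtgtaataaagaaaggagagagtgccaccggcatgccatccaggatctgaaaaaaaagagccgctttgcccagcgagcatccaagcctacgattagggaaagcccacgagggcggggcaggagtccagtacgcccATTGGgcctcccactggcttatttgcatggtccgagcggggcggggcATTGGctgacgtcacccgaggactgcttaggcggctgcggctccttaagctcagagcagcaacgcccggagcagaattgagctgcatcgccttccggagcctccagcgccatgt
Fdps: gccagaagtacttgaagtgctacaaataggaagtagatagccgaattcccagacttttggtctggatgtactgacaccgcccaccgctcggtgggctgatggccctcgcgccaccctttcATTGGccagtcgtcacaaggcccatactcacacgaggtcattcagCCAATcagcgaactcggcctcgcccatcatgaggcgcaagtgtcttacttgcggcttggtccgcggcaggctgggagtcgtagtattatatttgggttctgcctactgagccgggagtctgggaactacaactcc

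A CCAAT box on either strand lay in 12 of 15 cholesterol synthesis promoters (80%) and in 10 of 13 fatty acid and triglyceride synthesis promoters (76.9%) for which RefSeq gave a sequence, against 37.7% of 27457 rat promoters. The sterol regulatory element letters TCACNCCAC, read on both strands, were in 0 of either list's promoters and in 1.13% of all. These matches describe letters only, and no match says only that the letters are not in this window.

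Fatty acid and triglyceride synthesis was measured through 18 of its 20 listed genes, 15 of them with higher values in BPA25 glands and 3 with lower. Unadjusted p was under 0.05 for 3 members, all higher, as for 0.514% of all genes in this direction. In the BPA25 array 10 members were higher on all 4 shared slides, as were 7.35% of 15877 genes. The list level of an array (the median over members of the value minus its control mean) was 0.74, -0.83, 1.72, 1.53 and 0.84 on BPA25 replicates 1 to 5, against -0.54, -1.34, 0.72, 0.62 and 0.08 on control replicates 1 to 5. Outside slide 3, the lowest BPA25 array lay just above the highest control array. The within-slide differences were 1.28, 0.52, 0.81 and 0.76 on slides 1, 3, 7 and 9. Without slide 3 the list median was 0.96, without BPA25 replicate 2 it was 1.21 and without control replicate 2 it was 0.51, when the median of all genes was -0.03, 0.17 and -0.21.

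The steps of the pathway did not all stand alike. Acss2, which makes cytosolic acetyl-CoA from acetate, had 1.32, -0.24, 0.86, -0.03 and -0.42 in BPA25 replicates 1 to 5, against -1.07, -0.63, -1.07, -0.19 and -0.89 in control replicates 1 to 5. Only control replicate 4 reached into the BPA25 range. The difference was 1.07 ± 0.36 (SE), with limma's unadjusted p = 0.00614. Me1, a malic enzyme that supplies NADPH for fatty acid synthesis, had 2.88, 1.47, 4.43, 4.37 and 3.29 in BPA25 glands, against 1.04, 0.37, 2.85, 2.80 and 2.31 in control glands. The groups overlapped over the whole set, but the BPA25 array was higher on each shared slide, by 0.98 to 1.84, and the difference was 1.42 ± 0.67 (limma's unadjusted p = 0.0417). Pnpla3, a lipid droplet protein with lipase and acyltransferase activity, had 0.96, 0.11, 2.03, 1.90 and 0.39 in BPA25 glands, against -2.03, -0.11, 0.58, 0.12 and -1.05 in control glands. It differed by 1.58 ± 0.65 (limma's unadjusted p = 0.0199), and by 0.22 to 2.99 within slides.

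The enzymes that build and desaturate the chain had large values and wide errors. Scd, a stearoyl-CoA desaturase, differed by 1.41 ± 0.74, Scd2 by 1.43 ± 0.94, the elongase Elovl6 by 1.14 ± 0.70 and fatty acid synthase Fasn by 1.00 ± 0.83. All 4 of these genes were higher on each of the 4 shared slides. The mitochondrial citrate carrier Slc25a1 differed by 0.93 ± 0.51, and the lipogenic nuclear protein Thrsp by 0.76 ± 0.57. Gpam, the first acyltransferase of glycerolipid synthesis, differed by 0.87 ± 0.45 (0.55 without BPA25 replicate 3), and limma's unadjusted p was 0.0629, or 0.0437 with slide as a block. The transcription factor gene Srebf1 (-0.03 ± 0.51) and the last enzymes of triglyceride assembly, Dgat1 (0.06 ± 0.51) and Dgat2 (0.10 ± 0.68), stood near 0, and so did the phosphatase Lpin1 (-0.02 ± 0.53). Mlxipl, which encodes the glucose-sensing factor ChREBP, differed by 0.53 ± 0.35, and Elovl5, an elongase of polyunsaturated fatty acids, by -0.35 ± 0.26.

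**Figure D2:**
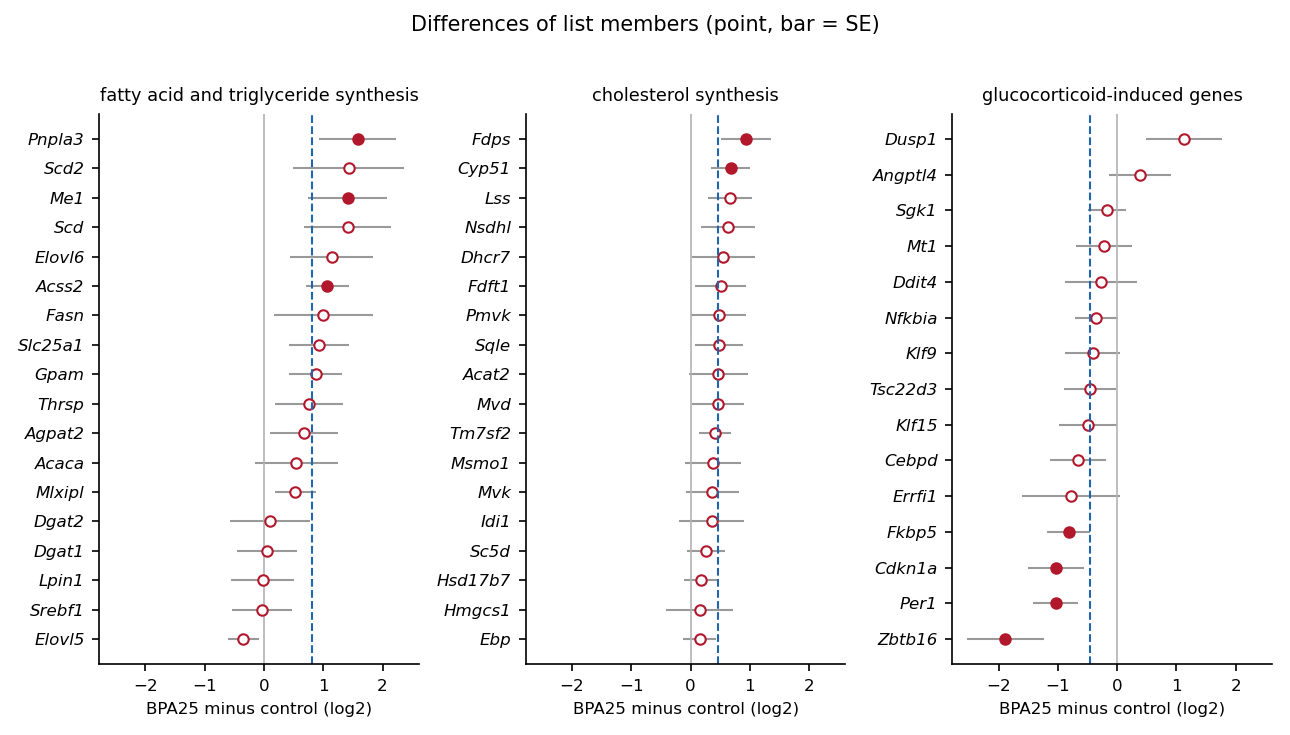
BPA25 minus control difference (log2, x axis) of measured members of 3 lists, with its standard error (bar); filled points have an unadjusted p under 0.05 in limma, the dashed line is the median of all measured members. All cholesterol genes shown lie right of 0, and 13 of 15 glucocorticoid-induced genes lie left of 0.

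Cholesterol synthesis had higher values in BPA25 glands for all of the 19 members measured of 20, from 0.16 (Ebp and Hmgcs1) to 0.94 (Fdps). Unadjusted p was under 0.05 for 2 of them, as for 0.514% of all genes in this direction. On all 4 shared slides 9 were higher, as were 7.35% of 15877 genes. The list level was 0.44, -0.83, 0.94, 1.08 and 0.54 on BPA25 replicates 1 to 5, against -0.36, -0.95, 0.67, 0.60 and 0.20 on control replicates 1 to 5. The ranges overlapped widely, and within slides the BPA25 array was higher by 0.80, 0.12, 0.40 and 0.34 on slides 1, 3, 7 and 9. The median was 0.28 without BPA25 replicate 3, 0.31 without BPA25 replicate 4, 0.73 without BPA25 replicate 2 and 0.19 without control replicate 2.

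Fdps, farnesyl diphosphate synthase, had 3.78, 2.80, 5.03, 5.16 and 4.61 in BPA25 glands, against 2.40, 2.75, 4.29, 4.07 and 3.17 in control glands. The difference was 0.94 ± 0.42 (limma's unadjusted p = 0.0311), and a further probe of the gene gave 1.04. Cyp51, lanosterol demethylase, had 0.87, 0.22, 1.17, 1.05 and -0.06 in BPA25 glands, against -0.75, -0.38, 0.06, 0.85 and 0.09 in control glands. It differed by 0.67 ± 0.32 (limma's unadjusted p = 0.0449) and was higher on 3 of 4 shared slides. Lanosterol synthase Lss stood at 0.67 ± 0.37 (limma's unadjusted p = 0.0838), with an unadjusted p of 0.0387 with the replicate block and 0.0157 with slide as a block (limma). Of the sterol-sensing genes, Insig1, an endoplasmic reticulum protein that retains the sterol response machinery, stood at 0.61 ± 0.62 and was higher on all 4 shared slides. Srebf2, the gene of the sterol response factor of this pathway, stood at -0.43 ± 0.30. The whole list of sterol sensing, uptake and efflux had 8 of 12 members higher and a median of 0.10.

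Markers of the fat cell itself did not stand apart in the same way. White adipocyte markers had 7 of 12 members higher and 5 lower, with a median of 0.08 and list levels from -1.56 to 0.50 in BPA25 glands and from -1.51 to 0.40 in control glands. Fabp4, the adipocyte fatty acid binding protein, differed by 0.31 ± 0.48, Plin1, the coat protein of the lipid droplet, by -0.05 ± 0.53, and the adipokine Retn by -0.26 ± 0.63, with Retn and Cfd lower on all 4 shared slides. Lipid droplet and lipolysis genes had a median of 0.20 (7 of 9 higher), fatty acid uptake and oxidation 0.18 (13 of 15 higher) and oxidative phosphorylation 0.19 (19 of 21 higher). On all 4 shared slides 1, 6 and 7 members of these lists were higher, beside 7.35% of all genes. A share above that of all genes was therefore not particular to the synthesis lists. Brown adipocyte markers had a median of -0.18, with 2 of 7 higher.

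Phospholipid synthesis had 12 of 13 measured members higher in BPA25 glands and 1 lower, and its median was 0.47 without BPA25 replicate 2 and 0.071 without control replicate 2. Pisd, which makes phosphatidylethanolamine in mitochondria, had the smallest p among the named genes with higher values. It had 0.02, -0.48, -0.50, -0.54 and -1.21 in BPA25 glands, against -2.06, -1.04, -1.12, -1.38 and -1.66 in control glands. Only BPA25 replicate 5 lay in the control range. The difference was 0.91 ± 0.26 (limma's unadjusted p = 0.00138), it was above 0 on all 4 shared slides, and the fit with array weights called it (0.93 ± 0.20, adjusted p = 0.0225). The probe was above background on 4 of 5 BPA25 and 3 of 5 control arrays. Pcyt2, of the CDP-ethanolamine route, differed by 0.53 ± 0.28 (limma's unadjusted p = 0.065, 0.044 with the replicate block and 0.0282 with slide as a block). The serine base-exchange enzyme Ptdss2 differed by 0.56 ± 0.31, and by 0.31 without BPA25 replicate 1. Cds1, a CDP-diacylglycerol synthase, was the 1 lower member, at -0.50 ± 0.23 (limma's unadjusted p = 0.0415), but its other probe gave -0.07.

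**Figure D3:**
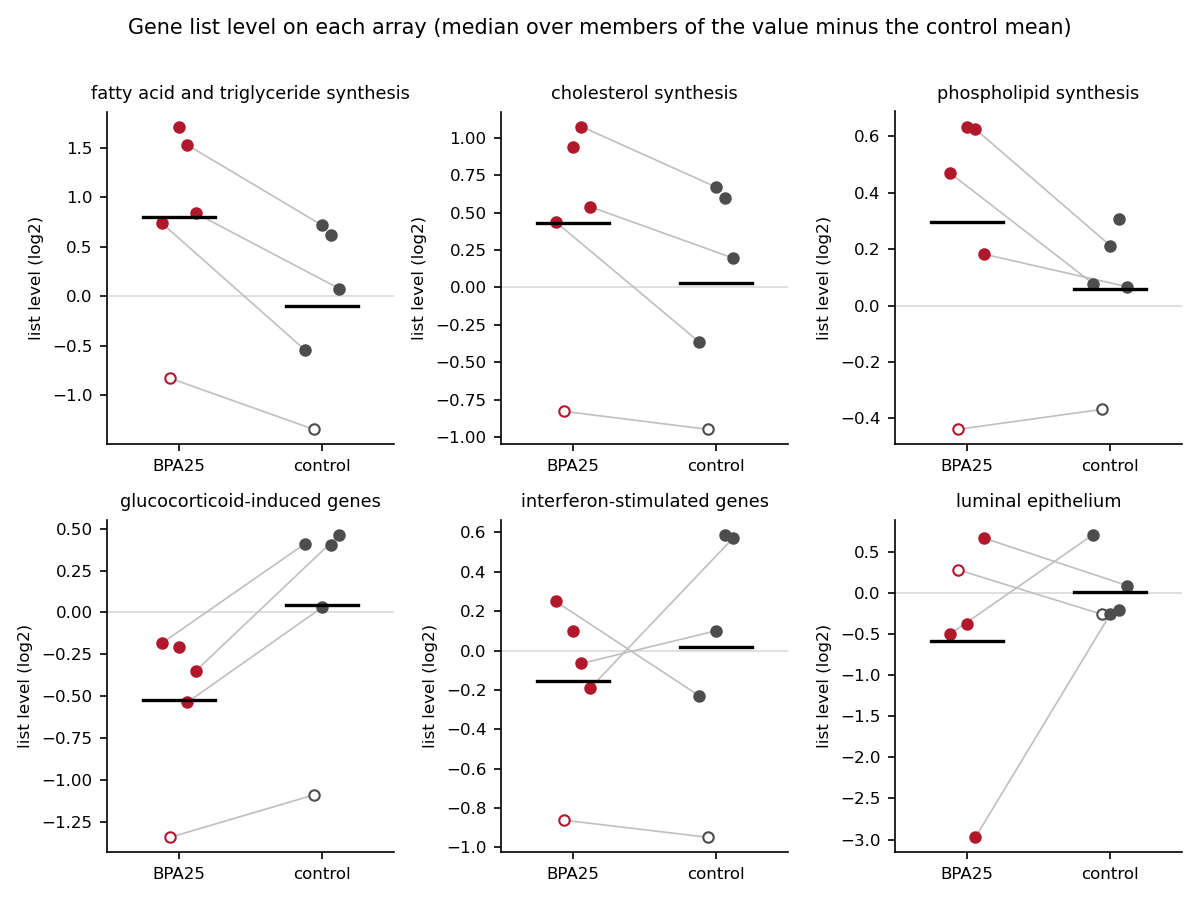
List level on each array (median over members of the log2 value minus the control mean, y axis) for 6 lists, BPA25 left and control right. Open circles are the slide 3 arrays, black bars are group means, and grey lines join arrays of 1 slide; the glucocorticoid level is lower in the BPA25 array on all 4 joined slides, and the luminal epithelium level of BPA25 replicate 4 is -2.97.

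Glucocorticoid-induced genes stood in the other direction. Of 15 members measured of 18, 13 had lower values in BPA25 glands and 2 had higher, against 48.0% of all genes below 0. Unadjusted p was under 0.05 for 4 members, all lower, as for 1.49% of all genes in this direction. On all 4 shared slides 5 members were lower, as were 4.77% of all genes. The list level was -0.18, -1.34, -0.21, -0.54 and -0.35 on BPA25 replicates 1 to 5, against 0.41, -1.09, 0.03, 0.40 and 0.46 on control replicates 1 to 5. With the slide 3 pair set aside, all 4 BPA25 arrays lay below all 4 control arrays. Within slides the BPA25 array differed by -0.59, -0.25, -0.57 and -0.81 on slides 1, 3, 7 and 9. The list median was -0.50 with slide as a block and -0.53 without slide 3. It was -0.20 without BPA25 replicate 2 and -0.83 without control replicate 2.

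Zbtb16, a zinc finger transcription factor strongly induced by glucocorticoids, had -3.08, -2.33, -4.10, -2.59 and -1.39 in BPA25 glands, against 0.65, -1.17, -2.18, -0.36 and -1.02 in control glands. BPA25 replicate 5 and control replicate 3 overlapped. It differed by -1.88 ± 0.65 (limma's unadjusted p = 0.00684), was lower on all 4 shared slides, and its other probe gave -2.37. The probe was above background on 1 of 5 BPA25 and 4 of 5 control arrays, so the low values are near the detection limit. Per1, a clock gene that glucocorticoids induce directly, had -2.84, -1.94, -3.16, -2.04 and -2.10 in BPA25 glands, against -0.64, -1.55, -1.58, -1.50 and -1.62 in control glands. Here all BPA25 arrays lay below all control arrays, with a difference of -1.03 ± 0.38 (limma's unadjusted p = 0.0095). The Per1 probe was above background on 3 of 5 BPA25 and 5 of 5 control arrays. Control replicate 1 stood far above the other control arrays. Within slides Per1 differed by -2.20 on slide 1, and by -0.39, -0.46 and -0.47 on slides 3, 7 and 9. With replicates left out in turn its difference ranged from -1.15 to -0.85.

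Fkbp5, the co-chaperone that dampens the glucocorticoid receptor, had 3.14, 2.17, 1.54, 1.82 and 2.37 in BPA25 glands, against 3.63, 2.79, 2.53, 3.49 and 2.68 in control glands. BPA25 replicate 1 alone lay within the control range. The difference was -0.82 ± 0.37 (limma's unadjusted p = 0.0326), and its other probes gave -0.44 and -0.36. With slide as a block the difference was -0.62 ± 0.40 (limma's unadjusted p = 0.136). Cdkn1a, the cell cycle inhibitor p21 and also a p53 target, had 1.96, 0.47, 1.71, 1.98 and 2.37 in BPA25 glands, against 3.23, 1.45, 2.35, 3.42 and 3.19 in control glands. The groups overlapped, with lower BPA25 arrays on all 4 shared slides. It differed by -1.03 ± 0.47 (limma's unadjusted p = 0.0342) and by -1.36 at its other probe. The p53 target list, which holds Cdkn1a too, had 8 of 13 measured members higher and a median of 0.12.

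Other members had the same sign with wider errors. Errfi1, a feedback inhibitor of the EGF receptor, differed by -0.78 ± 0.82, Cebpd, a transcription factor of early adipogenesis, by -0.66 ± 0.47, Klf15 by -0.50 ± 0.49, Tsc22d3, which encodes GILZ, by -0.46 ± 0.45 and Klf9 by -0.41 ± 0.47. Klf9 was lower on all 4 shared slides. The 2 genes with higher values were Dusp1, a phosphatase that switches off MAP kinases (1.12 ± 0.64, above background on 4 of 5 BPA25 and 1 of 5 control arrays), and Angptl4, an inhibitor of lipoprotein lipase (0.38 ± 0.52). The receptor gene itself, Nr3c1, stood at 0.13 ± 0.46. The half-site letters AGAACA of the glucocorticoid response element, read on both strands, were in 0 of 13 promoters of the list and in 20.1% of all rat promoters.

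Per1 also belongs to the circadian clock list, which did not stand with it. That list had 9 of 12 measured members higher in BPA25 glands and a median of 0.13. Nr1d1, the clock repressor REV-ERB alpha, was lower on all 4 shared slides, at -0.98 ± 0.67. Per2 stood at 0.03 ± 0.45, Bmal1, the activator of the clock, at 0.28 ± 0.37, Cry2 at 0.41 ± 0.37 and Dbp at 0.10 ± 0.26. The E-box letters CACGTG, which clock activators bind and which read the same on both strands, were in 3 of 11 promoters of this list (27.3%) and in 6.65% of all. The labels give no time of day for the dissections.

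**Figure D4:**
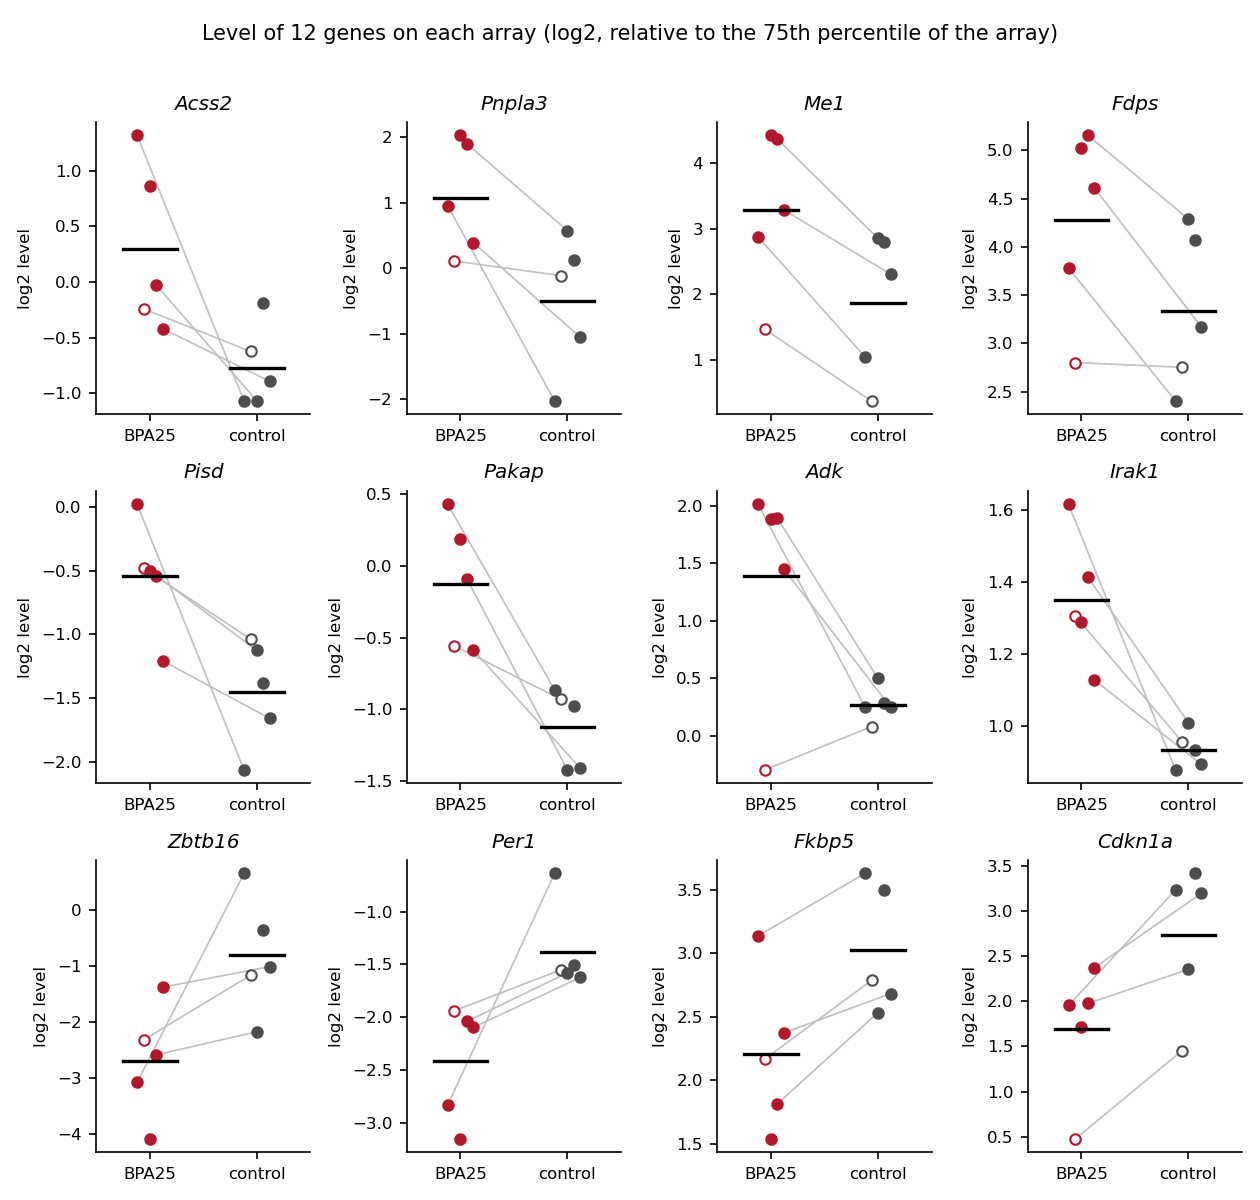
Level (log2, relative to the 75th percentile of the array, y axis) of 12 genes on each array, BPA25 left and control right; open circles are the slide 3 arrays, black bars are group means, and grey lines join arrays of 1 slide. Pakap, Irak1 and Per1 do not overlap between the groups, and Adk is higher in the BPA25 array on slides 1, 7 and 9 and lower on slide 3.

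Among the other genes with higher values and the smallest p, several handle metabolites. Adk, adenosine kinase, had 2.01, -0.30, 1.89, 1.89 and 1.45 in BPA25 glands, against 0.25, 0.08, 0.50, 0.28 and 0.25 in control glands. The 4 BPA25 arrays outside slide 3 lay above all control arrays, and BPA25 replicate 2 lay below them all. The difference was 1.12 ± 0.42 (limma's unadjusted p = 0.0128), and the fit with array weights called it (adjusted p = 0.0154). Uros, the fourth enzyme of haem synthesis, differed by 0.91 ± 0.32 and was above background on 4 of 5 BPA25 and 2 of 5 control arrays. The haem synthesis list, which holds Uros too, had 6 of 8 measured members higher and a median of 0.12. Ppp1r3b, which brings protein phosphatase 1 to glycogen, differed by 1.63 ± 0.63 and by 1.31 at its other probe. It ranged from -1.85 to -0.36 in BPA25 glands and from -4.46 to -1.02 in control glands, and was above background on 4 of 5 BPA25 and 3 of 5 control arrays.

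Ap3m1, a subunit of the AP-3 vesicle adaptor, had 1.01, 0.26, 0.77, 0.72 and 0.48 in BPA25 glands, against -0.58, 0.71, -0.44, -0.50 and -0.61 in control glands. Only control replicate 2, on slide 3, reached the BPA25 range. The difference was 0.93 ± 0.31, against 0.54 at the gene's other probe, and the fit with array weights gave it the smallest adjusted p of all genes, 0.00982. Pakap, the joined locus of the membrane protein paralemmin 2 and a protein kinase A anchor, had 0.43, -0.56, 0.19, -0.09 and -0.59 in BPA25 glands, against -0.86, -0.93, -1.42, -0.98 and -1.41 in control glands. These ranges did not overlap, the difference was 1.00 ± 0.33, and the fit with array weights called it (adjusted p = 0.0287). The remaining genes of this set were Nabp1, a single-strand DNA binding protein (0.83 ± 0.31), Abhd1 (1.05 ± 0.41), Tmcc3 (0.94 ± 0.37), Tlcd3b (1.30 ± 0.51) and Tkt-ps1 (1.23 ± 0.48, or 0.80 without control replicate 1). Tlcd3b was above background on 4 of 5 BPA25 and 2 of 5 control arrays, and Tmcc3 on 4 of 5 and 3 of 5. Tkt-ps1 is annotated as a transketolase pseudogene, and its probe cannot be taken to separate it from Tkt.

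Genes with lower values and the smallest p included kinases and cell surface proteins. Cdkl3, a cyclin-dependent kinase-like protein, had -1.15, -0.80, -1.47, -1.22 and -1.90 in BPA25 glands, against -0.50, -0.49, -0.56, -0.85 and -0.37 in control glands. BPA25 replicate 2 and control replicate 4 crossed by a small margin. The difference was -0.76 ± 0.25 (limma's unadjusted p = 0.00456). Cdk12, a kinase of transcription elongation, had -0.86, -1.06, -1.36, -2.50 and -3.34 in BPA25 glands, against -0.61, -0.97, -1.06, -0.79 and -0.74 in control glands. Its difference of -0.99 ± 0.33 was widest on BPA25 replicates 4 and 5 and was -0.61 without BPA25 replicate 5, while other transcription elongation kinases stood near 0 (list median -0.06, with Cdk9 at 0.05 ± 0.32 and Cdk13 at -0.10 ± 0.35). The fit with array weights called both Cdkl3 (adjusted p = 0.0239) and Cdk12 (adjusted p = 0.024). The Cdk12 probe was above background on 3 of 5 BPA25 and 5 of 5 control arrays, so its lowest values are near the detection limit.

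Cdh11, a cadherin of mesenchymal cells, had -1.92, -1.26, -3.05, -2.78 and -1.91 in BPA25 glands, against -0.53, -1.32, -1.94, -1.11 and -1.50 in control glands. It differed by -0.90 ± 0.32 and was above background on 2 of 5 BPA25 and 5 of 5 control arrays. Fibroblast markers as a list did not stand with it, with 5 of 10 lower and a median of 0.03. Mmrn1, multimerin 1 of platelets and endothelium, had -1.27, -1.44, -1.74, -1.35 and -1.88 in BPA25 glands, against -0.49, -1.06, -0.72, -0.25 and 0.23 in control glands. The groups did not overlap, the difference was -1.08 ± 0.43, and the fit with array weights called it (adjusted p = 0.0402), while endothelial markers as a list had 11 of 13 members higher.

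The others of this set were Fam180a (-1.15 ± 0.42, fitted without its missing value in BPA25 replicate 2, and -0.61 without BPA25 replicate 3), the stress-induced proteasome cofactor Zfand2a (-0.87 ± 0.33), Nicol1 (-0.71 ± 0.28), Ddx60, an antiviral helicase (-1.05 ± 0.44), the small GTPase Rabl2 (-0.79 ± 0.33) and Tmem30b, a lipid flippase subunit (-1.33 ± 0.56, or -0.76 without BPA25 replicate 4). Ddx60 was above background on 1 of 5 BPA25 and 4 of 5 control arrays, Fam180a on 2 of 5 and 5 of 5, and Rabl2 on 2 of 5 and 4 of 5. Zfand2a was above background on 3 of 5 BPA25 and 4 of 5 control arrays. With slide as a block, limma's unadjusted p of Tmem30b was 0.0554. Interferon-stimulated genes as a list had 10 of 11 members lower, but with a median of -0.18 and with within-slide differences of 0.48, 0.09, -0.17 and -0.77. Oas1a, an antiviral sensor, was lower on all 4 shared slides, at -0.44 ± 0.27. Of the 12 leading genes with higher values 7 kept their direction on all 4 shared slides, where 7.35% of all genes were higher. Of the 12 with lower values 7 did so, where 4.77% of all genes were lower. The fit with array weights called 6 of the former and 5 of the latter, and 0.886% of all genes. These genes were chosen by their p on the same arrays, so neither count is independent support for them.

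The BPA25 and control arrays did not overlap for 8 genes that were higher (0.0504% of 15868 with all values) and 22 that were lower (0.139%). Of these, 6 and 7 had a RefSeq name. Besides Tmcc3 and Pakap, the higher ones with the widest gap were Irak1, Adpgk and Sgcb. Irak1, a kinase of interleukin 1 and Toll-like receptor signalling, had 1.61, 1.31, 1.29, 1.41 and 1.13 in BPA25 glands, against 0.88, 0.96, 1.01, 0.93 and 0.89 in control glands. The lowest BPA25 value lay above the highest control value, and the difference was 0.42 ± 0.19 (limma's unadjusted p = 0.0391). Adpgk, the ADP-dependent glucokinase, differed by 0.37 ± 0.22 (limma's unadjusted p = 0.1, and 0.0149 with slide as a block), and Sgcb, a sarcoglycan of the dystrophin complex, by 0.48 ± 0.24. The lower ones, besides Per1 and Mmrn1, included the transcription factor Mef2d (-0.88 ± 0.38) and Btbd3 (-0.36 ± 0.26). Mef2d was above background on 2 of 5 BPA25 and 4 of 5 control arrays, and with slide as a block its difference was -0.64 ± 0.42 (limma's unadjusted p = 0.143). The other Btbd3 probe stood at 0.30, in the opposite direction.

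Epithelial transcripts varied widely between arrays. Krt18, a keratin of luminal cells, had 3.959, 4.192, 4.118, 1.305 and 5.36 in BPA25 glands, against 5.025, 2.652, 5.156, 4.897 and 4.891 in control glands. Low values in the BPA25 group belonged to replicate 4, where Epcam, an epithelial adhesion protein, stood at -2.40 beside 0.38 to 1.51 on the other BPA25 arrays. Luminal markers had 9 of 12 members lower and a median of -0.32, with within-slide differences of -1.22, 0.54, -2.72 and 0.58. Without BPA25 replicate 4 the median was 0.12, without BPA25 replicates 2 or 5 it was -0.60 or -0.61, and without control replicate 2 it was -0.20. Cldn4, a tight junction claudin, differed by -1.08 ± 0.59 (limma's unadjusted p = 0.0749, and 0.0462 with the replicate block) and the epithelial transcription factor Ehf by -1.14 ± 0.64. Without BPA25 replicate 4 they differed by -0.52 and -0.56. Tmem30b, named above, had -4.59 on BPA25 replicate 4 and -2.97 on replicate 1, and its part in the epithelial pattern was not tested. Of the milk protein genes named, Csn1s1, Csn3 and Lalba were lowest on BPA25 replicate 4 within their group, while Csn2 and Xdh were lowest on BPA25 replicate 2. Csn1s1, alpha-S1 casein, was at 0.2125, 2.327, 1.002, -1.995 and 3.204 in BPA25 glands, against 2.095, -0.1513, 1.633, 1.846 and 2.297 in control glands. Csn3 differed by -0.74 ± 0.55, Lalba, alpha-lactalbumin, by -0.40 ± 0.89 and Xdh, a protein of the milk fat globule, by -0.12 ± 0.34.

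Lymphoid markers were uneven too. Cd3d, a subunit of the T cell receptor complex, had -0.54, 0.76, 4.12, -0.08 and 4.08 in BPA25 glands, against 2.12, 0.39, 3.44, 2.27 and 1.39 in control glands. BPA25 replicates 3 and 5 were high and replicates 1 and 4 were low. The differences of Cd3d (-0.25 ± 0.81), Cd3g (-0.65 ± 1.07) and the T cell kinase Zap70 (-0.44 ± 0.78) were smaller than their errors, and Cd8b stood the other way at 0.62 ± 0.60. Skeletal muscle markers had 9 of 20 members higher, and their median of -0.06 became -0.68 with slide as a block and 0.48 without slide 3. Skin keratinocytes were represented by 2 measured markers of 10, Krt1 (-0.01 ± 0.57) and Sbsn (-0.51 ± 0.60). Macrophage markers had 8 of 11 members lower and a median of -0.17.

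Vessel and nerve markers had higher medians. Endothelial genes had a median of 0.31 (0.16 without BPA25 replicate 1 and 0.46 without BPA25 replicate 2), and the 4 with the smallest p were Eng (endoglin, 0.77 ± 0.45), Emcn (0.44 ± 0.32), the angiopoietin receptor Tek (0.39 ± 0.39) and VE-cadherin Cdh5 (0.38 ± 0.38). Without BPA25 replicate 1, Emcn stood at 0.18 and Tek at 0.16. Limma's unadjusted p of Eng was 0.0986, and 0.0331 with the replicate block. Of the 13 measured endothelial members 3 were higher on all 4 shared slides, as were 7.35% of all genes. Schwann cell markers had a median of 0.36, with 6 of 8 higher. It was 0.18 without control replicate 2, 0.62 without BPA25 replicate 2 and 0.55 without control replicate 5. Mbp, a structural protein of myelin, had 1.51, -1.14, 0.00, -1.15 and 0.35 in BPA25 glands, against -0.60, -1.52, -1.95, -2.71 and -0.14 in control glands, and was higher on all 4 shared slides. Its difference was 1.30 ± 0.55 (limma's unadjusted p = 0.0242). Prx, a protein of myelinating Schwann cells, differed by 1.01 ± 0.48, while the glial lineage factor Sox10 stood at -0.04 ± 0.38.

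The receptors always looked up, as ones through which BPA is known or thought to act, gave signal on few arrays. Esr1, Esr2, Pgr, Gper1 and Ahr were each above background on 1 BPA25 array and 1 control array, and on none outside slide 3. Cyp1a1 was above background on 1 BPA25 and 2 control arrays. No difference was detectable for these 6 genes at this signal. The wider list of steroid, xenobiotic and BPA-binding receptors had 6 of 15 members measured, 4 higher and 2 lower, with a median of 0.07. Among possible responders, Cyp1b1 differed by 0.03 ± 0.44 and Csn2, beta casein, by 0.01 ± 0.49, and the sign of both turned under other settings. Of the oestrogen-responsive mammary genes 10 of 16 were measured, 7 higher and 3 lower, with a median of 0.09. The EGF receptor ligand Areg was at -0.56 ± 0.56 and cyclin D1 (Ccnd1) at 0.09 ± 0.51. Cell cycle genes had 21 of 26 members higher and a median of 0.19, without a member at an unadjusted p under 0.05, with Mki67 at -0.06 ± 0.38 and the replication factor Mcm6 at 0.45 ± 0.38. The DNA methyltransferase Dnmt1 stood at -0.24 ± 0.26 (0.34 at its other probe) and the histone methyltransferase Ezh2 at -0.16 ± 0.40.

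The higher dose, BPA250, is set beside these values for the same lists and genes, in a comparison that used the same 5 control arrays. Fatty acid and triglyceride synthesis had a median of 0.31 in BPA250 against control, cholesterol synthesis 0.15 and glucocorticoid-induced genes -0.21 with 13 of 15 lower, where 41.7% of all genes were above 0 and 58.3% below. Skeletal muscle markers stood apart in these arrays, with a median of -2.66 for BPA250 against control (0 of 20 higher) and -2.59 for BPA250 against BPA25, and their part in the differences between doses was not tested. Acss2 differed from control by 0.60 ± 0.36, Pisd by 0.13 ± 0.26, Zbtb16 by -0.74 ± 0.65, Per1 by -0.40 ± 0.38 and Cdk12 by 0.19 ± 0.35 at this dose. Between the doses, limma called 0 of 16139 genes for BPA250 minus BPA25 (271 at an unadjusted p under 0.05). For named genes that difference was -0.78 ± 0.26 for Pisd, 1.18 ± 0.35 for Cdk12, 1.22 ± 0.43 for Mmrn1 and 1.14 ± 0.65 for Zbtb16. None of them passed, which does not show that the doses act alike.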

How the data were processed

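RNA of 35 glands was measured on 1-colour (Cy3) Agilent 4x44K rat arrays. The deposited scanner tables hold spot intensity, background-subtracted and detrended by Agilent Feature Extraction 9.5.3.1, per the file headers. They also hold flags, 0 or 1, for spots well above background, outlying or saturated, per the file headers. The authors' deposited value table holds log2 values whose normalization is not given in the sources used here, and it served as an alternative.

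Each array's log2 intensity was set relative to its 75th percentile. Outlying and 1639 control spots were left out. A probe was kept if well above background on at least 4 of 5 arrays of 1 of the 7 groups and missing on at most 5 arrays, and the brightest probe stood for a gene, which left 16139 genes. Of 41012 probes, 21294 matched RefSeq's rat table (GRCr8) and 19718 did not. The fit of group means (lmFit, eBayes, Benjamini-Hochberg adjustment) took in the 35 arrays and used limma 3.58.1 under R 4.3.3, and exact permutation tests used scipy 1.17.1. On simulated data, 75% of genes changed by 2 and 96% of those changed by 3 (log2) were recovered among 16139. The simulated noise was independent between arrays, whereas measured arrays of 1 slide were correlated (0.58 in the random block fit). Changes smaller than 2 were not simulated, so these shares do not apply to the smaller differences given here. The number of arrays limits the precision.

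Named genes were the 12 per direction with the smallest p at a log2 difference of at least 0.58, the 5 per direction with the widest gap between groups, up to 4 members of each list whose median differed from that of all genes by over 0.2, and genes always looked up. The 12 also had to have a RefSeq name and be above background on at least 4 of 5 BPA25 or 4 of 5 control arrays. Zbtb16, Ddx60 and Rabl2, among others, met this only through the control arrays, where they were higher. Some genes are not reported here. Other list members were named as examples after their values were seen. Members and lists were chosen with earlier results of these data known. Deviations of same-numbered BPA25 and control arrays from their group means had r of 0.372, 0.897, 0.382, 0.394 and 0.126 for replicates 1 to 5. The replicate number was therefore tried as a block, but these values do not establish that the numbers pair the arrays. BPA25 replicates 2 and 3 correlated most with the control array of their own number. BPA25 replicates 1, 4 and 5 did so with control replicates 4, 5 and 3. The slide 7 pair, BPA25 replicate 4 and control replicate 3, also had r of 0.382. Replicates 1, 2 and 5 also shared a slide. Alternatives covered scaling, background correction, filters, probes, slide, scan day, the replicate block, array weights and each replicate left out. The fit with slide as a block and slide 3 left out was chosen after seeing the data.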

Additional observations from a re-analysis of the deposited data

Results flagged for a closer look

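Single arrays stood far from the other 4 of their group in 13 of 152 groups of 5 checked with Dixon's criterion (0.71), which chance alone meets in about 1 in 20 groups. Of the 13, 9 lay on slide 3, and 12 are given here. BPA25 replicate 2 and control replicate 2 had 93.8% and 92.5% of probes well above background, and the 75th percentile signal of control replicate 2 was 374.8. On the same slide, BPA25 replicate 2 was low for Adk (-0.30). Control replicate 2 was high for Ap3m1 (0.71) and low for Csn1s1 (-0.15), Krt18 (2.65), Ezh2 (-2.58) and the glucocorticoid list (-1.09). Elsewhere, Epcam was low on BPA25 replicate 4 (-2.40) and Sgcb was high on BPA25 replicate 3 (-0.10). Per1 was high on control replicate 1 (-0.64). The cause of these values was not tested.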

How the results depend on the processing

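Of 68 named genes 55 kept 1 sign under the 27 or 28 alternatives run for each, and 40 of 41 list medians stayed within 1 SD of their value under 28, with 8 lists of 1 sign throughout. Counts of calls were run under 29. Array weights called 143 genes, the other alternatives 0, and the smallest adjusted p outside array weights was 0.0933 (slide as a random block). Genes at an unadjusted p under 0.05, higher and then lower with BPA25, numbered 22 and 59 with median centring, 101 and 118 with quantile normalisation, 128 and 97 with normexp and quantile normalisation together, 106 and 99 in the authors' deposited values, 53 and 53 above background on all 10 arrays, and 50 and 137 with the 10 arrays alone. They numbered 451 and 353 with slide as a fixed block, 462 and 526 as a random block, 136 and 231 with scan day, 291 and 302 on the shared slides, 243 and 388 with the replicate block, 812 and 1321 with array weights, 289 and 570 without slide 3, and 419 and 549 without slide 3 with slide as a block. Leaving out each replicate gave 27 to 303 higher and 130 to 503 lower. The fewest were without BPA25 replicate 3 (27 and 130). They were 40 and 149 without control replicate 1, and 88 and 152 without BPA25 replicate 5. The replicate block changed no call at the adjusted threshold. At the unadjusted threshold it brought in named genes including Lss, Pcyt2, Eng and Cldn4. Genes without overlap, higher, numbered 31 (quantile), 25 (normexp with quantile), 25 (authors' values) and 18 (mean of probes). Those without overlap, lower, numbered 6 (median centring), 36 (quantile), 36 (no filter) and 10 (all 10 arrays). Genes with 1 direction on all shared slides numbered 735 higher with median centring, and 1624 lower with no filter or 406 above background on all 10 arrays. Fewer or more genes were tested under the filters. The cause of the other shifts was not tested.

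The sign turned for Btbd3 (0.20) in the authors' values, for Lalba (0.095 and 0.056) and Cd3d (0.090 and 0.024) with normexp and quantile together and in the authors' values, for Cldn4 (0.24) with no filter, and for Dnmt1 (0.052) with the mean of probes. Array weights turned Zap70 (0.16), Cd3d (0.18) and Krt1 (0.26), and leaving out slide 3 turned Krt1 (0.15). Xdh turned on the shared slides (0.017) and without slide 3 with slide as a block (0.022). Cyp1b1 turned with quantile (-0.020), normexp with quantile (-0.041), the authors' values (-0.020) and the mean of probes (-0.082). Csn2 turned with slide as a fixed (-0.18) or random block (-0.13), scan day (-0.14), the shared slides (-0.23), without slide 3 (-0.0066) and with both (-0.26). With replicates left out in turn the ranges were -1.16 to 0.14 for Csn1s1, -0.91 to 0.16 for Lalba, -0.30 to 0.089 for Xdh, -1.35 to 0.13 for Cd3g, -0.96 to 0.18 for Zap70, -0.87 to 0.30 for Cd3d, -0.36 to 0.50 for Krt1, -0.33 to 0.42 for Cyp1b1, -0.17 to 0.19 for Csn2 and -0.44 to 0.019 for Ezh2. Dim probes on the arrays outside slide 3 limit what could be measured.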
